A study of Mus musculus with 4 samples.

Results

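The genes described here are 10 receptors, bridging proteins and partners that let cells bind and engulf membranes carrying phosphatidylserine (PS) or phosphatidylethanolamine (PE) on their surface. They were taken by symbol from the gene lists of the count matrices, and all 10 were found among the 32285 genes. They are the receptors Mertk, Axl, Tyro3, Megf10 and Adgrb1, the bridging proteins Gas6, Pros1 and Mfge8, the integrin subunit Itgav and the scramblase Ano6. RNA of single nuclei was measured in brains of 5XFAD females, mice in which transgenes cause amyloid plaques to form early. The mice were 7 to 10 weeks old and were injected with 100 µL of extracellular vesicles (EVs). These EVs were engineered from adipocyte lipids and carried transferrin, with a low PE content in PE-low EVs and a high PE content in PE-high EVs. Each group had 2 libraries, each pooled from 2 mice, and untreated or wild-type nuclei were not analysed here. The comparison asks which cell classes carry the transcripts of proteins that could bind such vesicles, and whether their levels differed between PE-high EVs and PE-low EVs.

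Healthy cells keep PS and PE on the inner leaflet of the plasma membrane, and vesicles and dying cells expose them on the outer leaflet once a scramblase such as TMEM16F, the product of Ano6, moves lipids between the leaflets. Gas6 and protein S (Pros1) bind exposed PS through vitamin K-dependent Gla domains and bring it to the TAM receptors Tyro3, Axl and Mertk, a family of receptor tyrosine kinases, while Mfge8 binds it and hands it to integrins that contain the αv subunit (Itgav). Adgrb1 (BAI1) is an adhesion receptor that binds PS directly and signals through ELMO, DOCK and Rac. Megf10 is a receptor of astrocytes that takes part in the clearance of synapses and dying cells. In brain, microglia and astrocytes are the best-known phagocytes, and both are known to use Mertk.

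After filtering, 37529 nuclei remained, between 7602 and 10296 per library, with median depths between 1240 and 2171 unique molecular identifiers (UMIs, a count of captured RNA molecules) per nucleus. The deposited matrices held between 29472021 and 43272337 UMIs per library, and about 50% of them lay outside called nuclei. This free, or ambient, RNA therefore sets a floor, and its level is given beside each gene. Between 20 and 35 barcodes were shared by any pair of libraries. PE-low EVs replicate 1 stood apart from the other 3 libraries. Summed over Cxcl10, Rsad2, Gbp5, Iigp1 and Ifit1, genes induced by interferon, endothelial nuclei had 148 CPM (UMIs per 1000000 UMIs of the class) in that library and 26446, 20949 and 21816 CPM in PE-low EVs replicate 2 and PE-high EVs replicates 1 and 2. These 5 genes were picked after the clusters were seen, from those leading endothelial clusters without nuclei of PE-low EVs replicate 1. The size of the endothelial difference is therefore partly set by that choice. The same sum was also lowest in that library in astrocytes (4.22 CPM against 47.9 to 56.0 CPM) and in microglia (15.8 CPM against 58.8 to 167 CPM). Its endothelial nuclei fell into clusters of their own, with 208 of 208 of them in clusters that held 2 nuclei of the other libraries. Where a call described here was lost without this library, that is said.

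The 10 genes were left out of the clustering, so the cell classes were not made from them. The classes were named from marker genes, and each name stands for nuclei like that cell type ("astrocyte-like" and so on). Enough nuclei to be compared in every library were present in 13 classes, with 34487 nuclei in all. These were 2854 astrocytes, 1414 microglia, 64 border macrophages, 962 oligodendrocyte precursors, 3988 oligodendrocytes, 556 endothelial nuclei, 59 pericytes and smooth muscle nuclei, 109 fibroblasts, 506 neuroblasts and progenitors, 10176 excitatory, 5579 inhibitory and 6332 striatal projection neurons and 1888 other neurons. The defining markers were highest in their own class for 8 of 8 endothelial, 7 of 7 fibroblast, 7 of 7 oligodendrocyte, 5 of 5 border macrophage, 6 of 8 microglial and 4 of 6 astrocyte genes. The counts were 5 of 5 for neuroblasts, 5 of 6 for oligodendrocyte precursors and 6 of 8 for pericytes and smooth muscle. They were 5 of 8 for striatal projection and 4 of 8 for excitatory neurons, so these names are only partly borne out. For the inhibitory neurons this held for 1 of 8 markers only, and the summed markers (2957 to 4437 CPM there) stood at 4122 to 5981 CPM in neuroblasts and 4226 to 5650 CPM in oligodendrocyte precursors, so that name has the weakest base. Another 2966 nuclei stayed unnamed.

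Levels are given in CPM, as the mean ± SD over the 4 libraries (n = 4, with both treatments included), and values of single libraries always follow the order PE-low EVs replicate 1, PE-low EVs replicate 2, PE-high EVs replicate 1 and PE-high EVs replicate 2, called library order. In the comparison of each class with the mean of the other classes, all 130 pairs of gene and class could be tested (edgeR, adjusted p under 0.1), and 38 were called higher and 27 lower. Over all 9990 genes tested in the 13 classes, 27.1% of gene-class pairs were called higher and 9.66% lower, so most genes of the brain differ between classes and a call alone says little. The order of the classes and the size of the differences are what the following values show. All 4 libraries enter each class mean. Library is a block in this fit, so its p-values measure how far class differences vary between libraries, in a fit of all classes together. They do not measure the spread of a gene's level between libraries, in which animals are pooled. The plots of levels show every library.

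**Figure D1:**
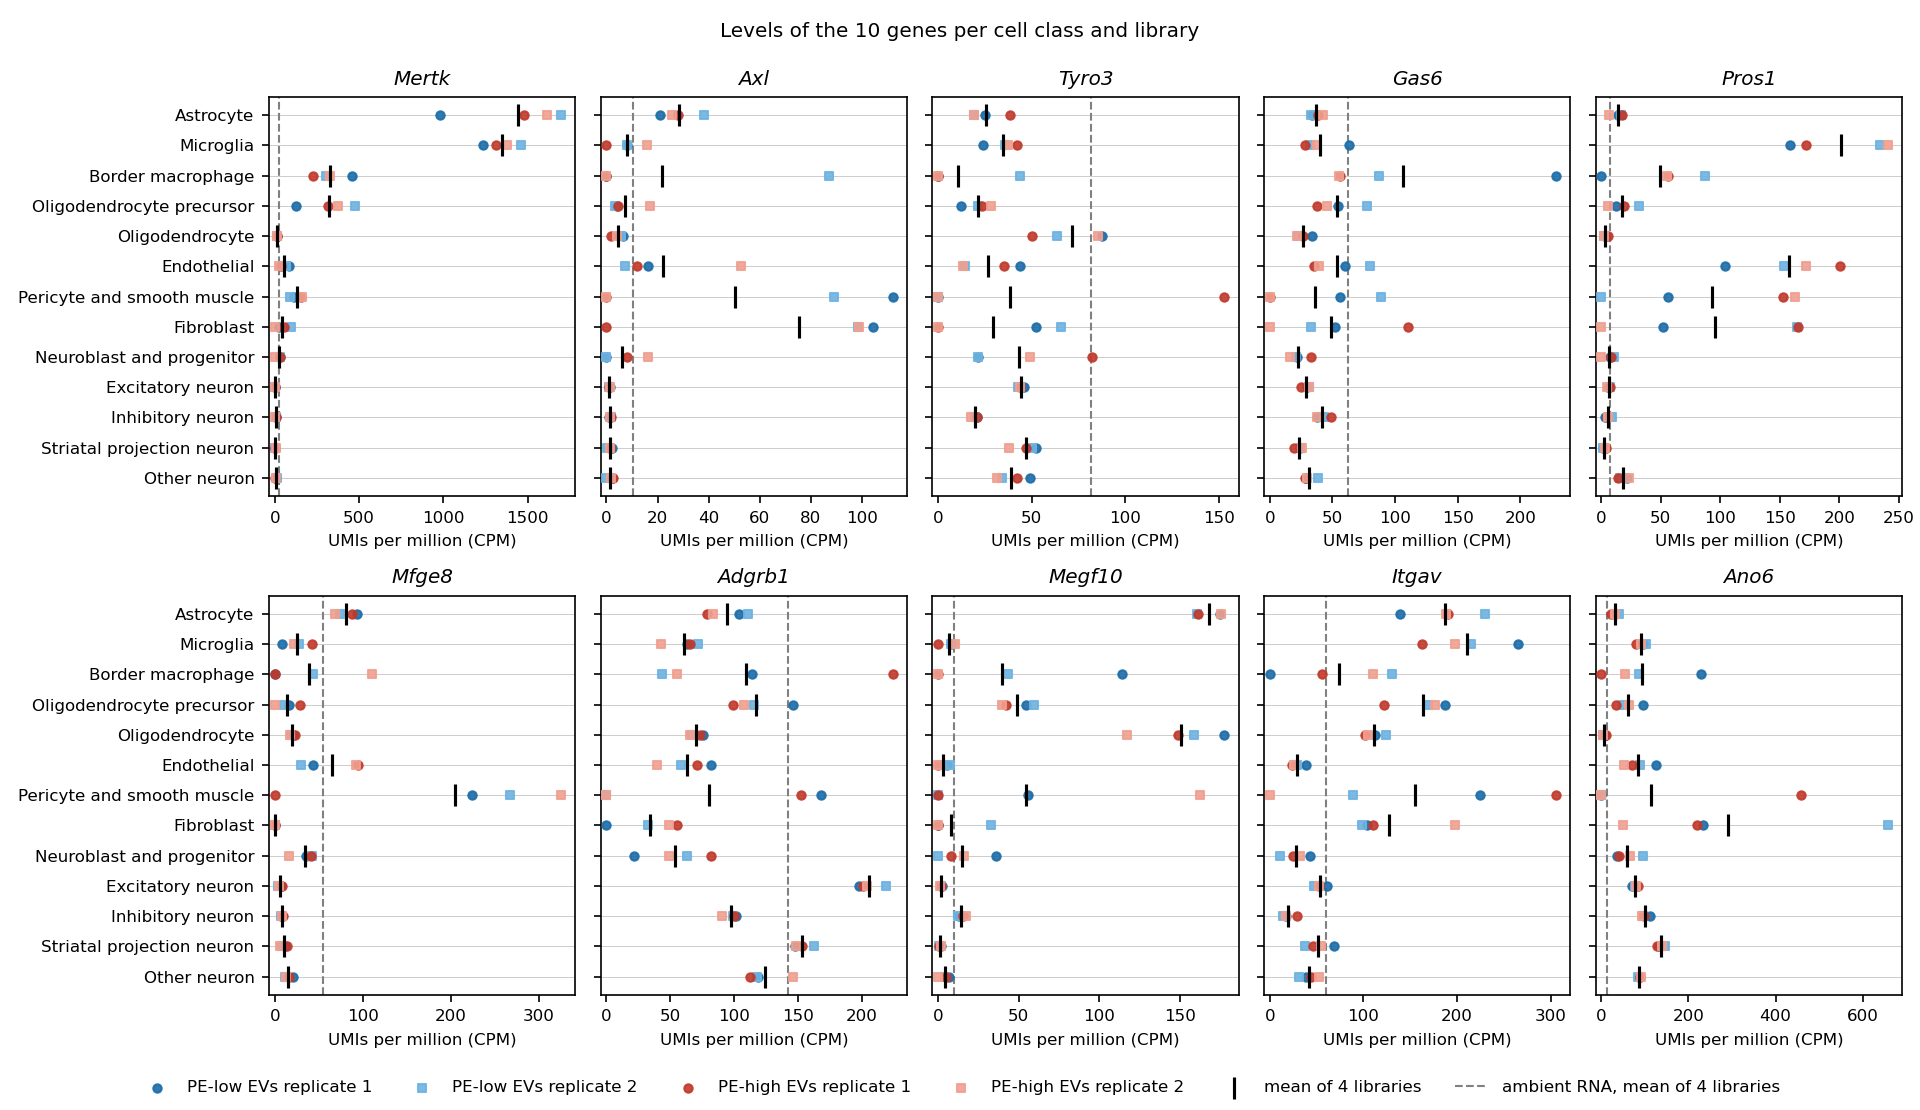
Level of each of the 10 genes in 13 cell classes, in CPM, with 1 point per library (blue for PE-low EVs, red for PE-high EVs, circles for replicate 1 and squares for replicate 2), a black bar for the mean of 4 libraries and a dashed line for the mean level in ambient RNA. Mertk lies above 970 CPM in astrocytes and microglia in all 4 libraries and Pros1 above 100 CPM in microglia and endothelial nuclei, while the scattered points of pericytes, fibroblasts and border macrophages rest on few UMIs.

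**Figure D2:**
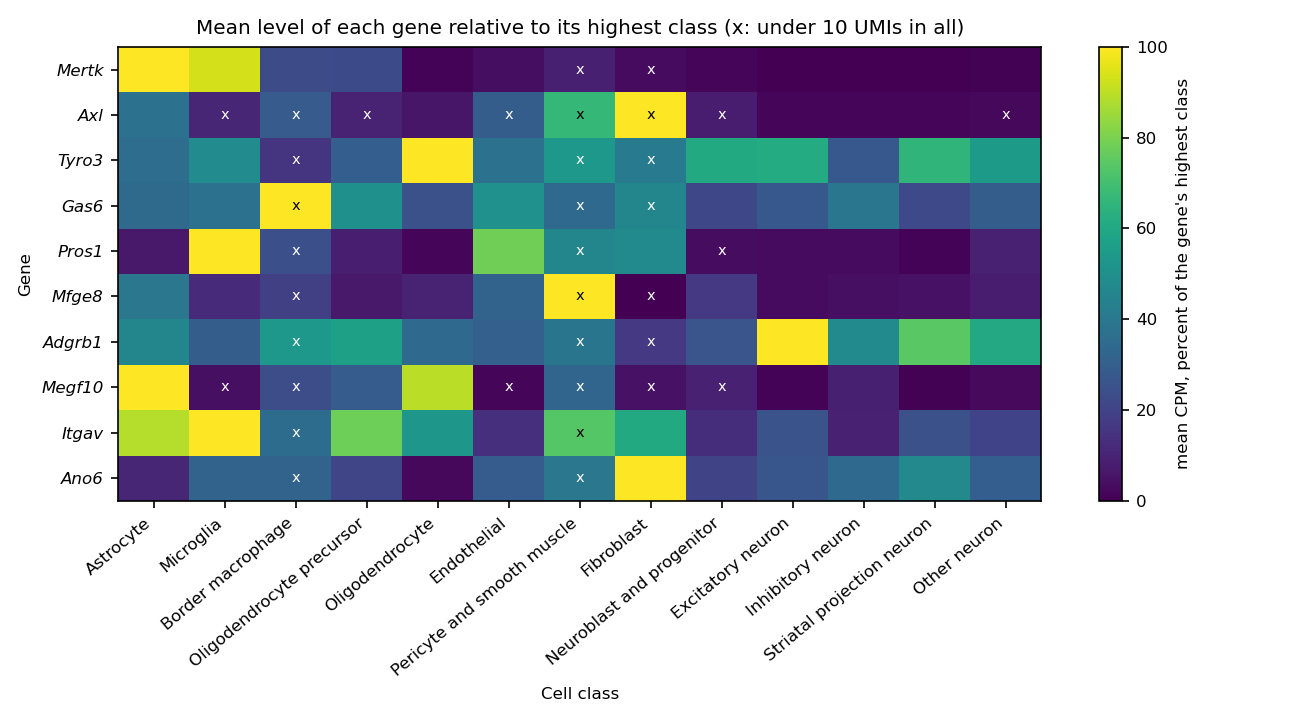
Mean level of each gene (rows) in each cell class (columns) as a percent of its highest class, from 0 (dark) to 100 (yellow), with an x where a gene had fewer than 10 UMIs in a class over all libraries. Mertk peaks in astrocytes and microglia, Megf10 in astrocytes and oligodendrocytes, Pros1 in microglia and endothelial nuclei, Tyro3 in oligodendrocytes and Adgrb1 in excitatory neurons.

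Mertk (ENSMUSG00000014361, mm10 chromosome 2, 128698956 to 128802894, plus strand) was read most in astrocytes and microglia. In astrocytes it stood at 978, 1697, 1477 and 1615 CPM in library order, and in microglia at 1235, 1462, 1314 and 1375 CPM. The ranges of these classes overlap, so the difference between astrocytes (1442 ± 322 CPM) and microglia (1346 ± 95.7 CPM) was within the spread between libraries. Border macrophages (329 ± 96.5 CPM, 21 UMIs in all) and oligodendrocyte precursors (323 ± 147 CPM) came next, below every microglial value, and also overlapped each other. The level was 13.1 ± 2.11 CPM in oligodendrocytes and between 3.13 and 7.06 CPM in the 4 neuronal classes, under the 19.3 to 28.2 CPM of ambient RNA.

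Against the mean of the other classes, Mertk was higher in astrocytes (log2 fold change 5.51 ± 0.09 SE, adjusted p = 9.33e-69), microglia (5.18 ± 0.11, adjusted p = 1.53e-59), oligodendrocyte precursors (3.13 ± 0.16, adjusted p = 1.13e-30) and border macrophages (2.12 ± 0.47, adjusted p = 0.000642). These 4 calls held in every alternative that could be run, with log2 fold changes of 5.25 to 7.31, 4.79 to 6.88, 2.89 to 4.66 and 1.99 to 3.22. Mertk was also called lower in oligodendrocytes and in the 4 neuronal classes, and after subtraction of ambient RNA the log2 fold changes were -7.64 in excitatory, -7.61 in striatal projection, -5.56 in inhibitory and -3.54 in other neurons and -1.57 in oligodendrocytes. Their adjusted p was then 1, with 0 Mertk UMIs left in excitatory and striatal projection neurons, so that p is no measure of a smaller difference. The fold changes of these 2 classes after the subtraction are likewise no measure of size. At least 1 Mertk UMI was found in 61.6% of astrocyte, 53.7% of microglial and 23.7% of oligodendrocyte precursor nuclei, at median depths of 794, 594 and 870 UMIs. The share was 0.717% in excitatory neurons, a class far deeper at 2201 UMIs, which shows the background. With the nuclei of at least 500 UMIs thinned to 500 UMIs and the others left out, the shares were 46.6%, 45.2%, 14.5% and 0.148%. For microglia this kept 1083 of 1414 nuclei.

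Oligodendrocyte precursors also held markers of astrocytes, at a summed 1143 to 1503 CPM against 9710 to 11209 CPM in astrocytes. Oligodendrocytes, with Mertk under the ambient level, held 938 to 1139 CPM of these markers and microglia 1286 to 1627 CPM. The part of these astrocyte transcripts in the Mertk of oligodendrocyte precursors was not tested. Free RNA was estimated from neuron markers, those of inhibitory neurons among them, at 76.6 to 91.9% of the UMIs of precursors. As said above, precursors held the inhibitory markers at a level as high as that of inhibitory neurons, so this share can be too high. Their level after its subtraction (631 ± 295 CPM) rests on a small remainder and on this estimate.

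The 7 clusters of astrocytes differed in Mertk. It was highest, at 1850 CPM, in a cluster of 567 nuclei led by Mertk and Gpc5, and lowest, at 545 CPM, in a cluster of 258 nuclei led by Thbs4. In 6 of the 7 clusters the lowest library was PE-low EVs replicate 1, the exception being a cluster of 406 nuclei led by Gpc5, where PE-high EVs replicate 1 was lowest (606 against 706 CPM). The same library was lowest in all 4 clusters of oligodendrocyte precursors and in 3 of the 5 clusters of microglia. Microglia as a whole were also lowest there (1235 CPM, with a highest library of 1462 CPM). In the whole precursor class, Mertk was 125 CPM in PE-low EVs replicate 1 (30 UMIs) and 474, 316 and 375 CPM in the other libraries. The summed astrocyte markers of astrocytes were not low in this library, at 10047 CPM against 9710 to 11209 CPM.

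**Figure D3:**
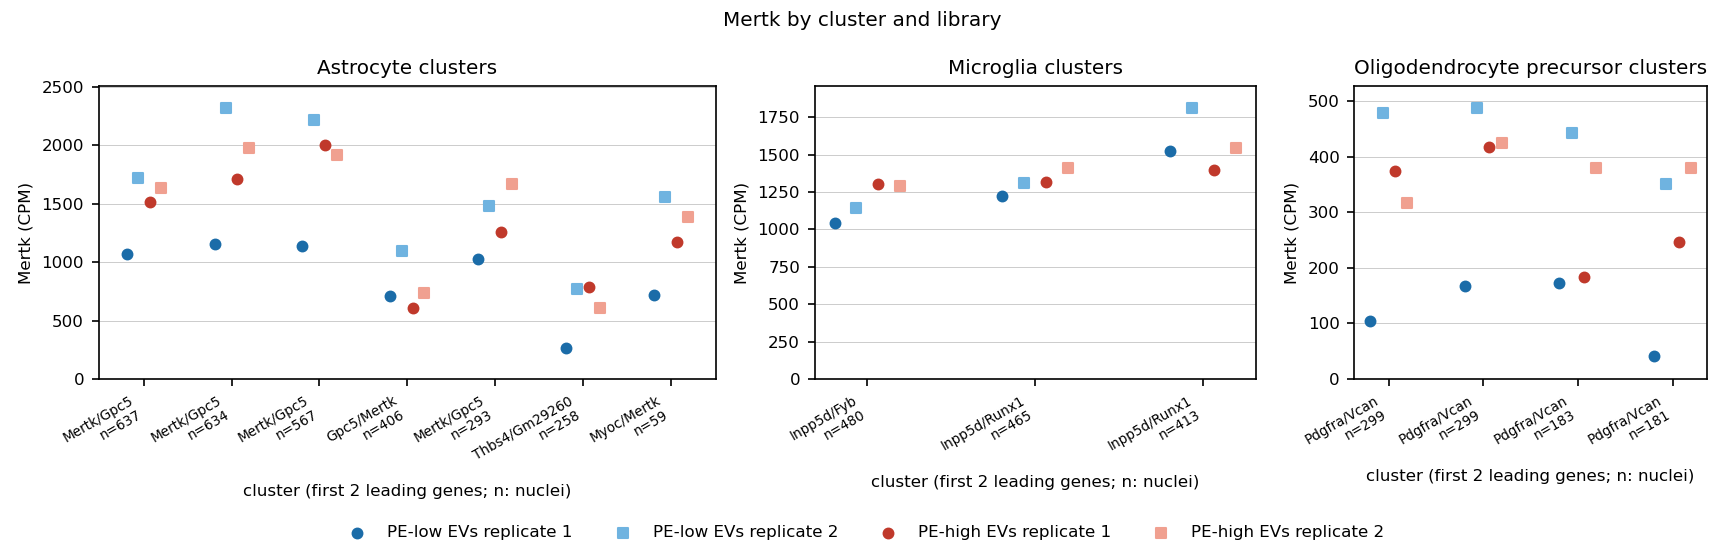
Mertk level in CPM in each cluster of at least 50 nuclei of astrocytes, microglia and oligodendrocyte precursors, with 1 point per library (blue for PE-low EVs, red for PE-high EVs, circles for replicate 1 and squares for replicate 2) and clusters named by their leading genes. PE-low EVs replicate 1 is the lowest point in 6 of 7 astrocyte clusters and in all 4 precursor clusters. In the 3 microglial clusters shown the libraries lie closer together, and over all 5 microglial clusters it is lowest in 3.

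Axl (ENSMUSG00000002602, chromosome 7, 25757273 to 25788705, minus strand), the TAM receptor that binds Gas6 most tightly, was sparse, with 196 UMIs over the 13 classes. Astrocytes had 21.1, 38.3, 28.0 and 25.7 CPM in library order, above the 9.31 to 10.8 CPM of ambient RNA in each library. Fibroblasts had 104, 98.6, 0 and 98.8 CPM, which rest on 9 UMIs. Axl was higher in fibroblasts (log2 fold change 3.13 ± 0.70, adjusted p = 0.000386) and astrocytes (2.19 ± 0.28, adjusted p = 1.62e-10), and both calls held in the alternatives that could be run. The call in endothelial nuclei (1.43 ± 0.60, adjusted p = 0.0561, 9 UMIs) was lost in several of them, among them those without PE-low EVs replicate 1 (adjusted p = 0.102) and without PE-high EVs replicate 2 (adjusted p = 0.426). Microglia had 7 Axl UMIs in all, or 7.98 ± 6.55 CPM, with libraries from 0 to 16 CPM on both sides of the ambient level. A UMI of Axl was seen in 2.42% of astrocyte and 0.424% of microglial nuclei, or in 0.931% and 0.0923% after thinning to 500 UMIs.

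Tyro3 (ENSMUSG00000027298, chromosome 2, 119797733 to 119818104, plus strand), the TAM receptor best known from neurons and myelinating glia, had its highest mean in oligodendrocytes. The values there were 87.6, 63.7, 50.1 and 85.3 CPM in library order. Striatal projection neurons (46.8 ± 6.29 CPM) and excitatory neurons (44.2 ± 1.36 CPM) followed, with ranges that overlap those of their neighbours in the order. Inhibitory neurons had 19.7 ± 1.63 CPM, below every value of excitatory neurons. Tyro3 was called higher in oligodendrocytes (log2 fold change 1.52 ± 0.18, adjusted p = 1.18e-11), striatal projection neurons (1.10 ± 0.16, adjusted p = 7.88e-09) and excitatory neurons (0.96 ± 0.16, adjusted p = 1.1e-07), in every alternative that could be run, whereas the call in other neurons (0.64 ± 0.23, adjusted p = 0.0192) was lost without PE-low EVs replicate 1 (adjusted p = 0.195). The level in ambient RNA was 74.4 to 89.9 CPM, above the mean of every class. Free RNA was estimated at 19.5 to 25.5% of the UMIs of excitatory neurons and 33.3 to 45.4% of those of oligodendrocytes, and after its subtraction 31.8 ± 2.77 CPM of Tyro3 remained in excitatory neurons and 62.8 ± 34.3 CPM in oligodendrocytes.

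Megf10 (ENSMUSG00000024593, chromosome 18) was about as high in oligodendrocytes as in astrocytes. Astrocytes had 174, 160, 161 and 175 CPM in library order, and oligodendrocytes 177, 158, 149 and 117 CPM, which overlap. Ambient RNA held 8.51 to 11.3 CPM. The log2 fold change was 4.04 ± 0.16 in astrocytes (adjusted p = 1.03e-39), 3.93 ± 0.15 in oligodendrocytes (adjusted p = 5.42e-40) and 2.13 ± 0.32 in oligodendrocyte precursors (adjusted p = 2.9e-08), and these calls held in every alternative that could be run. A Megf10 UMI was seen in 13% of astrocyte and 11.3% of oligodendrocyte nuclei (7.63% and 7.41% after thinning), against 0.424% of microglial nuclei (0.185% after thinning). Within oligodendrocytes, Megf10 ranged from 58.9 CPM in a cluster of 410 nuclei led by St18 and Gm10863 to 205 CPM in a cluster of 744 nuclei led by Prr5l, and a cluster of 48 nuclei led by 9630013A20Rik had 0 UMIs. In microglia it stood at 6.64 ± 4.61 CPM, on 6 UMIs, and its lower call there (adjusted p = 0.0911) was lost in 8 alternatives, among them those without PE-low EVs replicate 1, PE-low EVs replicate 2 and PE-high EVs replicate 1. The lower calls of Megf10 in excitatory, striatal and other neurons did not pass without PE-low EVs replicate 2 (log2 fold changes -2.15, -2.42 and -1.06), at a mitochondrial limit of 5% (-2.66, -2.68 and -1.26) or with ambient RNA subtracted (-6.27, -6.28 and -1.62), with the direction unchanged in these 3 settings. After the subtraction 0 Megf10 UMIs were left in excitatory and striatal projection neurons, so the fold changes there are no measure of size.

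Adgrb1 (ENSMUSG00000034730, chromosome 15, 74516195 to 74589465, plus strand) had the reverse pattern, with its highest levels in neurons. Excitatory neurons had 198, 219, 201 and 204 CPM in library order, and striatal projection neurons 148, 163, 153 and 148 CPM. These ranges did not overlap each other or that of other neurons (124 ± 15.2 CPM), and both lay above the 138 to 146 CPM of ambient RNA. Adgrb1 was higher in excitatory neurons (log2 fold change 1.78 ± 0.09, adjusted p = 1.06e-31) and striatal projection neurons (1.37 ± 0.10, adjusted p = 1.56e-21) in every alternative that could be run. In microglia it was 60.7 ± 12.4 CPM and in astrocytes 94.3 ± 15.6 CPM, both under the ambient level. The higher call in astrocytes (0.38 ± 0.15, adjusted p = 0.0372) became a log2 fold change of -0.03 when only the 10 classes with 500 or more nuclei were fitted and was lost without PE-low EVs replicate 1 (adjusted p = 0.137), PE-low EVs replicate 2 (adjusted p = 0.413) or PE-high EVs replicate 2 (adjusted p = 0.110), and the lower call in microglia (-0.56 ± 0.23, adjusted p = 0.0409) did not pass after ambient subtraction (-2.94) and was lost without PE-low EVs replicate 1, PE-high EVs replicate 1 or PE-high EVs replicate 2, while in the 10 large classes it was -1.02 ± 0.18 (adjusted p = 1.84e-06). The lower calls in neuroblasts and fibroblasts were likewise lost without PE-low EVs replicate 1 (adjusted p = 0.672 and 0.200).

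Pros1 (ENSMUSG00000022912, chromosome 16, 62854307 to 62929346, plus strand), which encodes the anticoagulant protein S and a ligand of Mertk and Tyro3, stood at 158, 234, 172 and 241 CPM in microglia in library order. Endothelial nuclei had 104, 154, 201 and 172 CPM, a range that overlaps that of microglia. Both were far above ambient RNA, at 6.19 to 7.89 CPM. The log2 fold change was 3.54 ± 0.19 in microglia (adjusted p = 2.78e-29) and 3.25 ± 0.27 in endothelial nuclei (adjusted p = 1.72e-18), with ranges over the alternatives of 3.15 to 4.53 and 2.81 to 3.81. Shares of nuclei with a Pros1 UMI were 11.6% and 10.6% (9.33% and 6.21% after thinning), against 0.251% in oligodendrocytes (0.115% after thinning). Pros1 was lower in striatal projection neurons, oligodendrocytes, inhibitory and excitatory neurons, at means between 2.25 and 6.16 CPM, and these 4 calls also held in every alternative. The call in fibroblasts (1.89 ± 0.58, adjusted p = 0.0175, 10 UMIs) was lost without PE-low EVs replicate 2 (adjusted p = 0.350) and without PE-high EVs replicate 1.

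Mfge8 (ENSMUSG00000030605, chromosome 7, 79133768 to 79149060, minus strand), a secreted protein of astrocytes and vessel walls, stood in astrocytes at 92.8, 73.9, 87.5 and 68.4 CPM in library order, just above the 50.1 to 65.2 CPM of ambient RNA. Pericytes and smooth muscle nuclei had 224, 267, 0 and 325 CPM, from 9 UMIs. Mfge8 was called higher in pericytes and smooth muscle (log2 fold change 2.81 ± 0.72, adjusted p = 0.00557), astrocytes (2.63 ± 0.22, adjusted p = 6.07e-18) and endothelial nuclei (1.97 ± 0.45, adjusted p = 0.000177), and the first of these was lost without PE-low EVs replicate 1 (adjusted p = 0.113). No Mfge8 UMI was found in 109 fibroblast nuclei, which allows a Mfge8 UMI in up to 2.75% of such nuclei and a level of up to 28.0 CPM (3 counts over the class) and does not limit how many of them express the gene, and the fitted fold change there is no measure of size. The lower call in fibroblasts (adjusted p = 0.0727) was lost without any 1 of the 4 libraries, with adjusted p of 0.164 to 0.231. Each class is set against the mean of all the others, so this zero enters every contrast of Mfge8 and left those for neurons without a finite estimate. The fold changes of pericytes and smooth muscle, astrocytes and endothelial nuclei given above are therefore no exact measure of size either. With the 10 classes of 500 or more nuclei alone, Mfge8 was higher in astrocytes (2.25 ± 0.15, edgeR, adjusted p = 7.09e-21) and endothelial nuclei (1.555 ± 0.341, adjusted p = 0.000127). In that fit it was lower in excitatory neurons (-1.68 ± 0.16, adjusted p = 7.42e-15), inhibitory neurons (-1.29 ± 0.18, adjusted p = 2.59e-09) and striatal projection neurons (-0.73 ± 0.16, adjusted p = 0.000102).

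Gas6 (ENSMUSG00000031451, chromosome 8, 13465374 to 13494490, minus strand), the ligand of all 3 TAM receptors, was low in all classes with over 100 nuclei. Its means there ran from 23.0 CPM in neuroblasts to 54.0 CPM in endothelial nuclei, each class overlapping the next, and ambient RNA held 50.1 to 69.9 CPM. Border macrophages had 107 ± 82.6 CPM, on 6 UMIs. The gene was called higher in endothelial nuclei (log2 fold change 0.75 ± 0.31, adjusted p = 0.0549), oligodendrocyte precursors (0.74 ± 0.24, adjusted p = 0.0182) and inhibitory neurons (0.36 ± 0.14, adjusted p = 0.0229). Each of these was lost in at least 1 alternative, and that of the precursors turned to a log2 fold change of -0.74 after subtraction of ambient RNA. The free RNA of precursors can be overestimated, so that turn is uncertain. Without PE-low EVs replicate 2 the precursor call (adjusted p = 0.388) and the endothelial call (adjusted p = 0.444) were lost, without PE-low EVs replicate 1 the endothelial call (adjusted p = 0.105), and without PE-high EVs replicate 1 the inhibitory call (adjusted p = 0.134). On the other strand Gas6 overlaps Tmem255b.

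Itgav (ENSMUSG00000027087, chromosome 2, 83724397 to 83806916, plus strand), the αv subunit that serves as a receptor for Mfge8-coated membranes, was highest in glia. Microglia had 265, 214, 163 and 198 CPM in library order, astrocytes 139, 230, 191 and 188 CPM and oligodendrocyte precursors 188, 169, 122 and 176 CPM. The 3 classes overlap each other, and all their values exceed the 53.0 to 66.2 CPM of ambient RNA. Itgav was called higher in astrocytes (log2 fold change 1.66 ± 0.14, adjusted p = 5.47e-19), microglia (1.6 ± 0.18, adjusted p = 6.44e-13) and oligodendrocyte precursors (1.42 ± 0.19, adjusted p = 1.89e-09) in every alternative that could be run, and in oligodendrocytes (0.89 ± 0.15, adjusted p = 2.37e-07) in all but that with a mitochondrial limit of 3%. It was lower in inhibitory neurons, at 19.4 ± 6.45 CPM (-1.96 ± 0.20, adjusted p = 1.65e-14), neuroblasts (-1.54 ± 0.43, adjusted p = 0.00627) and endothelial nuclei (-1.25 ± 0.40, adjusted p = 0.00953), and these calls also held. Within astrocytes Itgav ranged from 75.5 CPM in the cluster led by Thbs4 to 241 CPM in the cluster with the highest Mertk.

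Ano6 (ENSMUSG00000064210, chromosome 15, 95790843 to 95974751, plus strand), the scramblase, exceeded the ambient level (11.6 to 14.1 CPM) in 12 of 13 class means. Striatal projection neurons had 131, 147, 128 and 140 CPM in library order, inhibitory neurons 99.6 ± 7.94 CPM, microglia 92.1 ± 10.00 CPM and excitatory neurons 77.6 ± 5.73 CPM. Astrocytes (31.7 ± 6.94 CPM) lay above oligodendrocytes (8.65, 3.27, 10.7 and 3.97 CPM) in every library. The log2 fold change was 1.55 ± 0.11 in striatal projection neurons (adjusted p = 4.82e-22), 0.83 ± 0.13 in inhibitory neurons (adjusted p = 2.13e-08) and 0.62 ± 0.12 in excitatory neurons (adjusted p = 8.59e-06), and it fell by 3.49 ± 0.37 in oligodendrocytes (adjusted p = 1.53e-13) and by 0.96 ± 0.23 in astrocytes (adjusted p = 0.000449). Both lower calls were lost without PE-high EVs replicate 1 (log2 fold changes -3.16 and -0.26), the library with the only 3 Ano6 UMIs of pericytes and smooth muscle. Without these UMIs the contrasts have no finite estimate, so that loss is no measure of a smaller difference. With the 10 classes of 500 or more nuclei alone, Ano6 was lower in oligodendrocytes (-3.60 ± 0.24, edgeR, adjusted p = 1.31e-21) and astrocytes (-1.01 ± 0.18, adjusted p = 1.90e-06). Fibroblasts had the highest mean but also the widest spread, with 234, 658, 220 and 49.4 CPM, and their call (1.88 ± 0.37, adjusted p = 4.33e-05) was lost without PE-low EVs replicate 2 (log2 fold change 1.06, adjusted p = 0.186).

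Counted by class, astrocytes had 6 of the 10 genes called higher (Mertk, Axl, Megf10, Mfge8, Itgav and, with a direction that turned in 3 alternatives, Adgrb1), with Ano6 called lower, where 36.5% of all genes were called higher and 8.12% lower. Oligodendrocyte precursors had 5 higher (Mertk, Megf10, Adgrb1, Gas6 and Itgav, with all genes 22.2% higher and 3.51% lower). Of these, Adgrb1, at 117 ± 20.4 CPM, lay under its ambient level of 138 to 146 CPM and was not called in the 10 large classes (0.31 ± 0.15, edgeR, adjusted p = 0.166). Adgrb1 and Gas6 both turned there after subtraction of ambient RNA, a share that can be too high in precursors. Endothelial nuclei had 4 higher (Axl, Gas6, Pros1 and Mfge8) with Itgav lower (27.7% and 12.2%). Microglia had Mertk, Pros1 and Itgav higher with Megf10 and Adgrb1 lower (34.2% and 9.84%), and oligodendrocytes had Tyro3, Megf10 and Itgav higher with Mertk, Pros1 and Ano6 lower (38.8% and 11.0%). Border macrophages had Mertk alone (5.62% and 6.13%) and pericytes and smooth muscle nuclei Mfge8 alone (2.68% and 10.4%). Fibroblasts had Axl, Pros1 and Ano6 higher with Mfge8 and Adgrb1 lower (8.54% and 6.93%), and neuroblasts had Itgav and Adgrb1 lower (15% and 3.60%).

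Excitatory (44.1% of all genes higher and 15.7% lower) and striatal projection neurons (40.6% and 14.7%) each had Tyro3, Adgrb1 and Ano6 higher and Mertk, Axl, Pros1 and Megf10 lower. Other neurons (33.9% and 9.29%) had the same 3 higher, with Mertk, Axl, Megf10 and Itgav lower, and inhibitory neurons (42.1% and 14.3%) had Adgrb1, Ano6 and Gas6 higher, with Mertk, Axl, Pros1 and Itgav lower. Adgrb1 in inhibitory neurons, at 97.9 ± 5.02 CPM, lay under its ambient level and was not called in the 10 large classes (0.13 ± 0.08, edgeR, adjusted p = 0.171). The lower calls of Axl in the 4 neuronal classes did not pass without PE-low EVs replicate 2 (log2 fold changes of -1.89 to -1.15) or after subtraction of ambient RNA (-4.70 to -4.57). After the subtraction 0 Axl UMIs were left in these 4 classes, so the fold changes and p-values of that setting are no measure of the difference. The median log2 difference of all genes was 0.32 in astrocytes, 0.34 in microglia and -1.01 in pericytes and smooth muscle nuclei, so a call is relative to a shifted centre. Of the 65 calls, 31 held in every alternative that could be run, 29 were lost in at least 1 and 5 changed direction in at least 1.

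None of the 10 genes passed the test between PE-high EVs and PE-low EVs within a cell class. Of 130 pairs of gene and class, 61 had enough counts to be tested, 0 passed (edgeR, adjusted p between 0.926 and 1.000) and 1 had an unadjusted p under 0.05. DESeq2 also called 0. Border macrophages, fibroblasts, neuroblasts and pericytes had no member with enough counts. Over all genes and classes, 5 of 81908 tests passed, or 0.00610%, so that 0 of 61 does not set the 10 genes apart. The log2 fold changes lay between -0.68 and 1.34, 55 of the 61 within 0.5 of 0, with a median SE of 0.28. With 2 libraries against 2, an exact permutation test of a single value cannot go below p = 1/3.

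**Figure D4:**
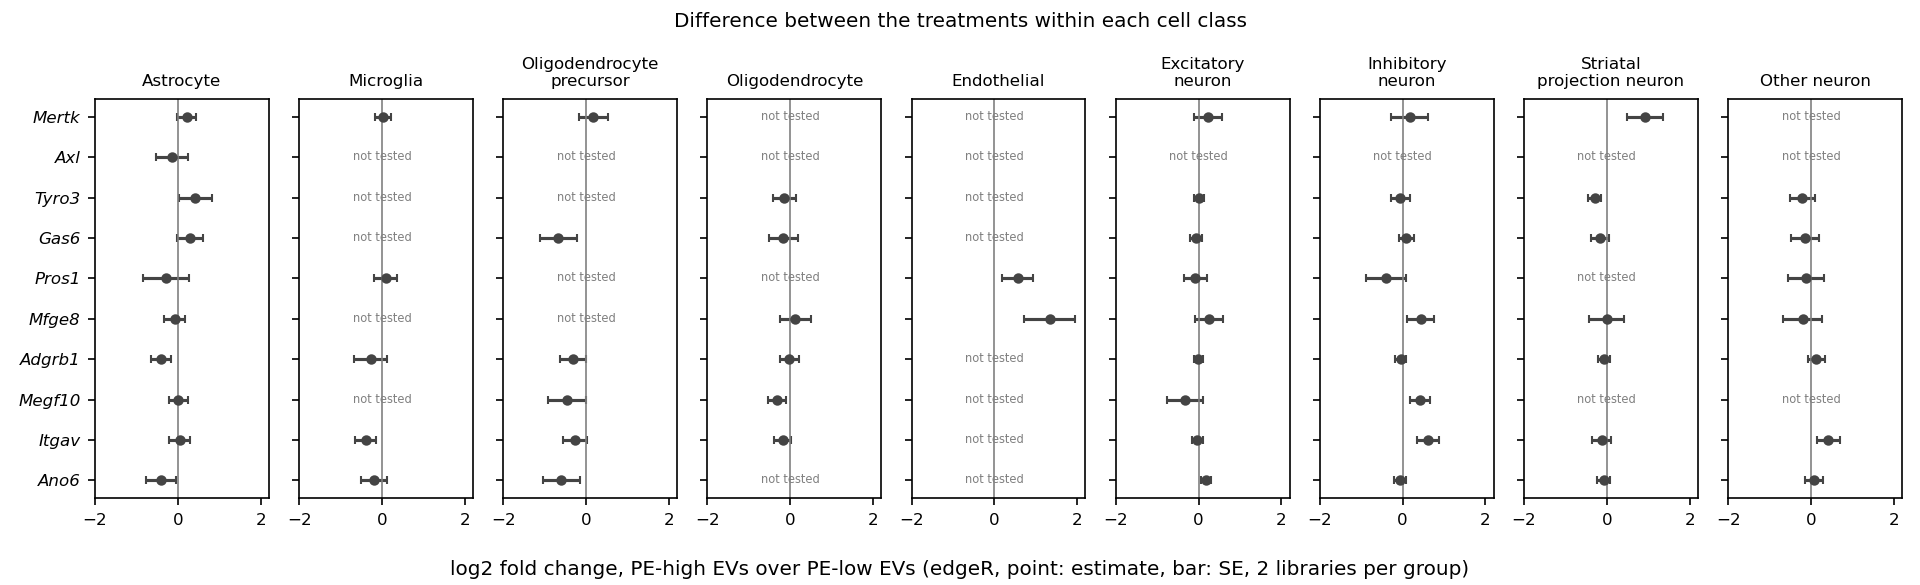
Log2 fold change of PE-high EVs over PE-low EVs (point) with its standard error (bar) for each gene (rows) in the 9 classes in which at least 1 of them could be tested (panels), from 2 libraries per group. The points lie between -0.68 and 1.34 and none passed the test. The widest offset is that of Mfge8 in endothelial nuclei, which passed the filter on low counts through the PE-high libraries only.

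The log2 fold change of Mertk in astrocytes was 0.21 ± 0.23 (adjusted p = 0.997) with all libraries. Without PE-low EVs replicate 2, Mertk was called higher in PE-high EVs (0.69, adjusted p = 0.0449), a fit in which 1 PE-low library is left and is assumed to vary like the PE-high libraries, and without PE-low EVs replicate 1 the difference was -0.14 (adjusted p = 0.836). In microglia Mertk differed by 0.02 ± 0.19 and Pros1 by 0.09 ± 0.28, and the ranges of the 2 groups overlapped for both. Itgav in microglia was 265 and 214 CPM after PE-low EVs and 163 and 198 CPM after PE-high EVs, a log2 fold change of -0.39 ± 0.25 (adjusted p = 0.929). The single unadjusted p under 0.05 was that of Itgav in inhibitory neurons, with 17.3 and 13.7 CPM against 28.7 and 17.8 CPM (0.62 ± 0.27, adjusted p = 0.998).

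In endothelial nuclei, 5 of the 6 genes with at least 20 UMIs (Mertk, Gas6, Pros1, Mfge8 and Ano6) had groups that did not overlap, where 29.2% of all genes with as many UMIs had such groups. Mfge8 was 43.9 and 29.2 CPM after PE-low EVs and 94.6 and 92.5 CPM after PE-high EVs (log2 fold change 1.34 ± 0.62, adjusted p = 0.997), from 27 UMIs. The filter on low counts asks for a CPM cutoff in as many libraries as a group has. Mfge8 reached that cutoff in the PE-high libraries only, so its fold change is partly set by the filter. Its PE-low values lay under the 50.1 to 65.2 CPM of ambient RNA. Pros1 was 104 and 154 CPM against 201 and 172 CPM (0.56 ± 0.38, adjusted p = 0.997). Mertk, at 82.3 and 65.8 against 35.5 and 26.4 CPM, Gas6, at 60.4 and 80.4 against 35.5 and 39.6 CPM, and Ano6, at 126 and 87.7 against 70.9 and 52.9 CPM, pointed the other way. They did not pass the filter on low counts and were not tested, though their 29, 28 and 45 UMIs exceed those of Mfge8. In this class the filter thus kept Mfge8 and dropped genes that were higher after PE-low EVs. None of these differences passed a test. The endothelial nuclei of PE-low EVs replicate 1 formed other clusters than those of the other 3 libraries, and the part of that split was not tested.

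Whether the treatment acted differently in 1 class than in the mean of the others was tested for all 130 pairs. None passed (edgeR, smallest adjusted p = 0.972), with 7 at an unadjusted p under 0.05, where 0.0154% of all 129870 tests passed. Where a class lacks UMIs in a group, that fit gives no finite estimate, so the fold changes of the small classes are not given.

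Other genes of the pathway were followed as lists. In the treatment comparison no gene of any list was called by edgeR in any class, with 14 tests at an unadjusted p under 0.05 over the 7 lists. These were 8 of 38 tests of other bridging proteins, 3 of 43 of other receptors, 2 of 69 of engulfment signalling and 1 of 48 of other scramblases. The remaining lists had 0. Among the other bridging proteins the smallest adjusted p was 0.909. Between classes, other receptors of exposed lipids or dying cells had 33 calls higher and 10 lower in 143 tests, of 11 genes with enough counts out of 17. This is 23.1% higher and 6.99% lower, and the lists with at least 39 tests had 21.2 to 34.1% higher and 6.99 to 24.6% lower, against the 27.1% and 9.66% of all genes. Adgrb3, a relative of Adgrb1, was highest in striatal projection neurons (3177 ± 149 CPM), and Lrp1, an endocytic receptor, was highest in microglia (251 ± 25.4 CPM). Adgrb2 had the largest mean in border macrophages (94.7 ± 56.0 CPM) and was called higher in 6 classes. The scramblases other than Ano6 had 31 calls higher and 15 lower in 91 tests of 7 genes. The 3 with the most UMIs over all classes were Xkr4, highest in inhibitory neurons (1311 ± 45.0 CPM), Ano3, highest in striatal projection neurons (594 ± 32.5 CPM), and Xkr6, highest in other neurons (379 ± 22.8 CPM).

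Among other bridging proteins, 16 of 65 tests were called higher and 16 lower. Edil3, a relative of Mfge8 that also binds PS and integrins, was highest in oligodendrocytes (2171 ± 176 CPM, log2 fold change 4.14 ± 0.08, adjusted p = 1.82e-60), where Mfge8 stood at 19.9 ± 2.57 CPM. Tub was highest in excitatory neurons (93.5 ± 5.48 CPM), and C1qb, a complement component that tags debris, was highest in border macrophages (561 ± 453 CPM) and next to them in microglia (log2 fold change 3.80 ± 0.15 there). The integrin beta subunits that pair with Itgav had 11 calls higher and 12 lower in 52 tests. Itgb5 was highest in microglia (639 ± 58.9 CPM, log2 fold change 5.38 ± 0.12, adjusted p = 1.12e-56), Itgb8 in oligodendrocyte precursors (119 ± 33.3 CPM) and Itgb1 in pericytes and smooth muscle (266 ± 221 CPM).

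The signalling genes behind the engulfment receptors had 37 calls higher and 17 lower in 117 tests of 9 genes. Elmo1, the partner of DOCK proteins through which Adgrb1 signals, was highest in microglia (2311 ± 301 CPM, log2 fold change 3.04 ± 0.09). Vav3 was highest in border macrophages (911 ± 151 CPM) and Ptk2 in oligodendrocytes (564 ± 24.8 CPM). Of the enzymes of vitamin K-dependent carboxylation, which Gas6 and Pros1 need, Vkorc1l1 had 1 call in 13 tests (higher in excitatory neurons, 0.23 ± 0.12, adjusted p = 0.0843), while Ggcx and Vkorc1 had too few counts. The proteases and feedback genes of the TAM receptors had 9 calls higher and 7 lower in 39 tests. Adam10 (258 ± 46.3 CPM) and Adam17 (135 ± 33.7 CPM), which cleave Mertk and Axl from the surface, were highest in microglia, and Socs3, an inhibitor of cytokine signalling, in border macrophages (116 ± 79.1 CPM).

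The genes whose class pattern was most like each of the 10, by Pearson's r over the 13 classes of mean log2(CPM + 1), are given as a description, since the classes share the same 4 libraries. For Mertk they were Agmo (0.877) and Sat1 (0.846), for Axl Steap3 (0.923) and Arhgef12 (0.922), for Tyro3 Rab33a (0.967) and Mdm2 (0.965), for Megf10 Cr2 (0.898) and Nkx2-2os (0.894) and for Adgrb1 Dpf1 (0.965) and Nol10 (0.961). For Pros1 they were Tgfbr2 (0.913), the type II receptor of TGF-beta, and Rin3 (0.912), for Mfge8 Pea15a (0.912) and Mrpl27 (0.904), and for Gas6 Lman1 (0.912) and Zfp160 (0.903). For Itgav they were 4930405A10Rik (0.890) and Sugct (0.820) and for Ano6 Dennd1b (0.883) and Pced1b (0.877). Among the 10 genes, the class pattern of Mertk was closest to those of Pros1 (0.583) and Itgav (0.566).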

How the data were processed

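Single nuclei of 4 libraries were profiled with 10x 3' v3.1 chemistry. Cell Ranger 7.1.0 and mm10 were used upstream, per the labels and methods, and the values the authors deposited are unfiltered UMI counts per gene and barcode. Lists of genes and barcodes came with them as other, non-numeric files. Intron counting is not given in the sources used here. Barcodes above the knee, and those with at least 500 UMIs that differed from ambient RNA (FDR 0.01), were taken as nuclei. Nuclei with 200 to 2500 genes and no more than 15% mitochondrial UMIs were kept, since a limit of 3%, as in the methods, left no microglial or endothelial class. Limits of 3% and 5% were alternatives.

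Clusters used 2000 variable genes without the 10 genes and pathway lists, 30 principal components, 20 neighbours and Leiden resolution 0.8 (scanpy 1.11.5, leidenalg 0.10.2), and classes needed 50 nuclei, with 10 per library. The genes, lists and markers were chosen with earlier results of these data known, and the naming thresholds after the clusters had been looked at. Scrublet marked under 0.5% of nuclei in 3 libraries and so had not worked there, and doublets were kept.

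UMIs summed per class and library were tested by edgeR 4.0.16 (quasi-likelihood, filterByExpr, TMM, Benjamini-Hochberg over all genes of a class, threshold 0.1), and classes were compared with library as a block. Intervals and floors (3 counts) cover counting error only. Shares were also computed after thinning nuclei with at least 500 UMIs to 500 UMIs, with the others left out. The scripts were tested on simulated data. Alternatives were DESeq2 1.42.0, its size factors, no filter, a threshold of 0.05, a replicate block, each library left out, no upper gene limit, knee only, Scrublet doublets removed, resolution 1.6 and ambient RNA subtracted, and, chosen after seeing the data, the highest 5% of Scrublet scores removed and only the 10 classes with 500 or more nuclei. Named were the 10 genes, the 3 genes of each list with the most UMIs, listed genes that passed between treatments and the 2 genes most like each of the 10. Positions are from a GENCODE annotation of mm10.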

Additional observations from a re-analysis of the deposited data

Results flagged for a closer look

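The treatment effect on Adgrb3, a relative of Adgrb1 and an adhesion receptor of synapses, differed between border macrophages and the mean of the other classes (log2 difference 3.44 ± 0.77, edgeR, adjusted p = 0.0328). It was 343 and 305 CPM after PE-low EVs and 617 and 2198 CPM after PE-high EVs, from 61 UMIs in all, and the call was lost without PE-low EVs replicate 1 and without PE-high EVs replicate 2. Adgrb3 was highest in striatal projection neurons (3177 CPM), and in the 64 border macrophage nuclei the summed neuron markers moved with it, at 343, 1175, 2468 and 3627 CPM in library order, as did the estimated share of free RNA, at 31.9, 35.4, 58.0 and 77.9%. Their part in the result was not tested.

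Nuclei of the ventricle lining, too few for the comparisons, held transcripts of the 10 genes above the limit that 0 counts allow. In 55 ependymal nuclei there were 26 UMIs of Gas6, or 284 CPM (exact Poisson interval 185 to 416), 12 of Ano6, 9 of Pros1, 6 of Megf10 and 4 of Adgrb1. Mertk had 0 UMIs there, which allows up to 32.8 CPM. Adgrb1, at 43.7 CPM (11.9 to 112), lay below its ambient level of 138 to 146 CPM. In 21 choroid plexus nuclei there were 11 UMIs of Gas6, or 284 CPM (142 to 508), and 6 of Ano6. Gas6 was at 50.1 to 69.9 CPM in ambient RNA, below both intervals, and its highest mean in a class with over 100 nuclei was 54.0 CPM.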

How the results depend on the processing

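Of the 65 class calls, 31 were kept in every alternative that could be run. With a mitochondrial limit of 3%, which left 56 tests, 18 pairs were higher and 17 lower, and with ambient RNA subtracted 10 were lower. Leaving out 1 library gave 33 to 38 pairs higher and 18 to 25 lower. These class differences changed direction: Adgrb1 in astrocytes (-0.034 in the 10 large classes, -0.64 at 3% and -0.40 at 5%), in inhibitory neurons (-0.27 at 3%) and in oligodendrocyte precursors (-0.088 at 3%, -1.13 with ambient RNA subtracted), Gas6 in precursors (-0.74 with ambient RNA subtracted) and Tyro3 in other neurons (-1.16 at 3%). The share of free RNA subtracted from precursors can be too high, as said above. The cause was not tested.

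Between treatments, 0 to 1 of the 10 genes and 0 to 12 pathway genes were called when 1 library was left out (12 without PE-low EVs replicate 1, 6 without PE-low EVs replicate 2). The difference of the treatment effect between classes was called for 0 to 1 pathway genes with 1 library left out, for 0 without PE-low EVs replicate 1 or PE-high EVs replicate 2, and for 0 at 3% and 5%. Log2 differences between treatments ranged with 1 library left out from -0.14 to 0.69 (Mertk, astrocytes), -0.092 to 0.14 (Mertk, microglia), -0.47 to 1.46 (Mertk, precursors), -0.027 to 0.070 (Megf10, astrocytes), -0.16 to 0.39 (Pros1, microglia), -0.28 to 0.11 (Mfge8, astrocytes) and -0.11 to 0.10 (Adgrb1, excitatory neurons). Other settings that turned them were, for Mertk in microglia, no filter (-0.012), 5% (-0.068), knee only (-0.076) and the highest Scrublet scores removed (-0.0068), for Megf10 in astrocytes no filter (-0.0045) and 3% (-0.59), for Pros1 in microglia knee only (-0.058), and for Adgrb1 in excitatory neurons 5% (0.018), no upper gene limit (0.017), the highest Scrublet scores removed (0.0065) and ambient RNA subtracted (0.0062).

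Deviations from the group mean correlated at 0.0239 to 0.188 over the classes between libraries with the same replicate number. With 2 libraries per group this is 1 comparison per class, which cannot show whether the number marks a shared batch. With the replicate block, 0 of the 10 genes and 1 pathway gene were called between treatments (Mertk in astrocytes 0.27, adjusted p = 0.874).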
